A study of Mus musculus with 8 samples.

Results

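The genes described here are the 10 core components of planar cell polarity measured in the developing molars of K14Cre;Jagged1fl/fl and control mouse embryos. They are *Vangl1*, *Vangl2*, *Celsr1*, *Celsr2*, *Celsr3*, *Prickle1*, *Prickle2*, *Fzd3*, *Fzd6* and *Scrib*, chosen by symbol from the 43629 Ensembl genes of the count tables. Lower molars were collected at E18.5 from 4 mutant and 4 control embryos, and the RNA of the left and right molars of an embryo was sequenced as 1 library. Every embryo carries loxP-flanked *Jagged1* alleles (Jagged1 fl/fl in the labels), and the mutants also carry Cre under the K14 promoter, which is active in epithelial cells. The controls are given as Jagged1 fl/fl in the labels and are called WT here, as the study names them. Cre under this promoter leaves the mesenchyme of the tooth with its *Jagged1* alleles, and the libraries were made from epithelium and mesenchyme together. The WT embryos are J3, J5, J6 and J7, and the mutant embryos are K14J26, K14J28, K14J29 and K14J30. The labels give neither the sex nor the litter of an embryo.

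Planar cell polarity is the alignment of cells within the plane of an epithelium, at right angles to their apical-basal axis. In this pathway the atypical cadherins Celsr1 to Celsr3 bridge neighbouring cells, with a Frizzled receptor and Dishevelled gathering on one face of a cell and Vangl and Prickle on the opposite face. Scrib, a scaffold protein of the basolateral membrane, binds Vangl proteins and also takes part in apical-basal polarity. In skin, inner ear and neural tube this system orients hairs, sensory cells and convergent cell movements, and secreted Wnt ligands such as Wnt5a act on it through Frizzled and Ror receptors.

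The libraries held 17327224 to 28613574 counts in WT molars and 24692128 to 29792467 in mutant molars. *Jag1*, the deleted gene, stood at 95.2 to 104 CPM (counts relative to library size after TMM scaling) in WT and at 34.0 to 57.1 CPM in mutants, a log2 fold change of -1.19 ± 0.14 (SE, adjusted p = 0.00517, edgeR). Transcripts of the enamel genes *Amelx*, *Ambn* and *Enam* took at most 0.329% of the counts of a WT library, and from 0.356% in mutant K14J28 over 0.965% in K14J30 and 2.47% in K14J29 up to 9.57% in K14J26. *Xist* was at 1930 CPM in K14J28, at 1468 CPM in K14J29 and at no more than 1.09 CPM in the other 6 libraries. The summed level of 7 skeletal muscle markers ran from 3.65 to 327 CPM in WT, highest in J6 and J7, and from 3.41 to 13.4 CPM in mutants. Markers of the labelled tissue were present in every library, with 8 dental and oral epithelium markers summing to at least 5286 CPM and 7 dental mesenchyme markers to at least 3084 CPM. Among the other lists, 3 of 4 odontoblast markers were higher in mutants, 1 of 7 neuron markers was higher, 1 of 6 Schwann cell markers and 1 of 7 skeletal muscle markers were lower, 2 of 7 mesenchyme markers were higher and 3 lower, and none of 5 endothelium and 5 macrophage and leukocyte markers passed the test.

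The question asked of these genes is whether loss of *Jagged1* in the epithelium goes with a different level of the polarity core. *Vangl2*, *Celsr1* and *Fzd6* were higher in mutant molars, by 1.58-fold, 1.85-fold and 1.41-fold, and no member was lower. This makes 3 of 10 members called higher and 0 called lower at an adjusted p under 0.05, where 9.52% of all 17129 tested genes were called higher, 6.61% lower and 16.1% in either direction. At an unadjusted p under 0.05, 5 members were higher and 0 lower in edgeR, beside 19.1% and 15.7% of all tested genes. DESeq2 called those 5 higher and 0 lower after adjustment, and it called 13.1% of all tested genes higher and 10% lower. The median log2 fold change of the members was 0.32, beside 0.0058 for all tested genes. By the criteria of the study, read here as a log2 fold change of 0.5 or more in size with an unadjusted p no higher than 0.05 since its methods name neither a scale nor a sign for the fold change, *Celsr1*, *Celsr2*, *Vangl2* and *Prickle2* were higher and none lower, beside 8.33% and 5.85% of all tested genes. *Fzd6* lay just under that fold limit. In 5 members every mutant embryo exceeded every WT embryo and in 0 members the reverse held, beside 12.6% and 11.6% of tested genes. In bulk tissue, more cells of a type and more RNA per cell cannot be told apart, which applies to every change below.

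**Figure D1:**
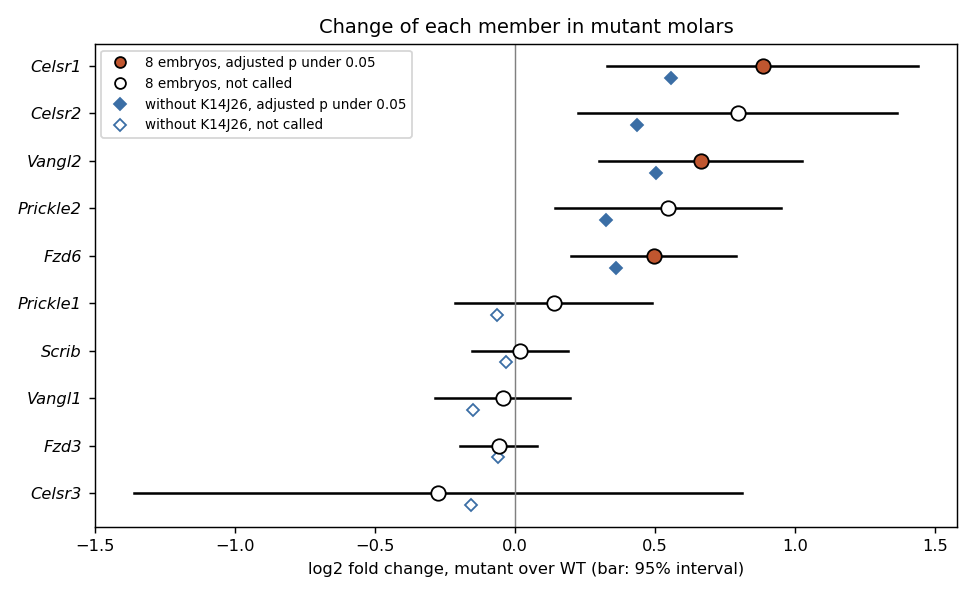
Log2 fold change of each member, mutant over WT, from edgeR (x axis; circles with 95% intervals from all 8 embryos; filled where the adjusted p is under 0.05), with the same estimate without mutant embryo K14J26 as diamonds. *Celsr1*, *Celsr2*, *Vangl2*, *Prickle2* and *Fzd6* have intervals above 0, and those of the other 5 members span it.

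The Vangl proteins are membrane proteins that recruit Prickle to their side of the cell. *Vangl2* (ENSMUSG00000026556, chr1:172000960-172028444, minus strand, GRCm38) was at 195, 218, 251 and 191 CPM in WT embryos J3, J5, J6 and J7 and at 445, 257, 347 and 304 CPM in mutant embryos K14J26, K14J28, K14J29 and K14J30. The lowest mutant embryo, K14J28, lay just above the highest WT embryo, J6. The means were 214 ± 27.6 CPM in WT and 338 ± 80.0 CPM in mutants (SD, n = 4 each). The fitted log2 fold change was 0.66 ± 0.16 (SE), with a 95% interval of 0.30 to 1.02 and an edgeR adjusted p of 0.0282. *Vangl1* (ENSMUSG00000027860, chr3:102153583-102204693, minus strand), the paralog, stood at 28.96, 25.5, 28.5 and 30.2 CPM in WT and at 33.4, 24.8, 26.4 and 25.3 CPM in mutants. Its groups overlapped, with K14J26 above every WT embryo, K14J28 and K14J30 below every WT embryo and K14J29 among them. The log2 fold change of *Vangl1* was -0.044 with an interval of -0.29 to 0.20 and an edgeR adjusted p of 0.804.

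The Celsr proteins are atypical cadherins that hold the complexes of adjacent cells together. *Celsr1* (ENSMUSG00000016028, chr15:85898929-86033777, minus strand) was at 242, 251, 307 and 245 CPM in the WT embryos in the same order and at 778, 308, 408 and 436 CPM in the mutants. K14J26 was far above the other mutants, and K14J28 only just exceeded WT embryo J6. The means were 261 ± 30.7 and 483 ± 204 CPM, and the log2 fold change was 0.88 ± 0.25 (SE; interval 0.33 to 1.44; edgeR adjusted p = 0.0411). *Celsr2* (ENSMUSG00000068740, chr3:108390851-108415552, minus strand) was at 118, 126, 139.8 and 115 CPM in WT and at 360.2, 142, 194 and 171 CPM in mutants. The groups did not overlap, although K14J28 lay close to J6. Its log2 fold change of 0.79 ± 0.25 (SE; interval 0.22 to 1.36) had an edgeR adjusted p of 0.0603 and was not called. *Celsr3* (ENSMUSG00000023473, chr9:108826320-108852969, plus strand), which is best known from neurons and axon tracts, was close to the floor of detection. It had 6 to 23 counts a library. Its levels were 0.443, 0.495, 0.675 and 0.405 CPM in WT and 0.288, 0.200, 0.277 and 0.893 CPM in mutants. Relative to library size without TMM scaling, 3 counts amount to 0.101 to 0.173 CPM, a range not on the TMM scale of these levels. K14J30 held both the highest value of all and a level above every WT embryo, while the other 3 mutants lay below every WT embryo. The interval of the *Celsr3* log2 fold change, -1.36 to 0.81, covers anything from 0.389 to 1.75 times the WT level, and a difference was not detectable with these counts and this spread between embryos (estimate -0.28, edgeR adjusted p = 0.717). The *Celsr3* estimate was -0.97 without K14J30 (edgeR adjusted p = 0.0902) and -0.032 without K14J28, and from -0.38 to -0.12 with any other embryo left out.

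The Frizzled proteins are membrane receptors for Wnt ligands, of which Fzd3 and Fzd6 act mainly in planar cell polarity. *Fzd6* (ENSMUSG00000022297, chr15:39006034-39038188, plus strand) was at 78.3, 82.1, 87.8 and 75.2 CPM in WT and at 145, 93.2, 118 and 99.3 CPM in mutants. All mutants were above all WT embryos, with K14J26 highest and K14J28 lowest. The means were 80.9 ± 5.46 and 114 ± 23.3 CPM, with a log2 fold change of 0.49 ± 0.13 (SE; interval 0.20 to 0.79; edgeR adjusted p = 0.0355). An antisense transcript, Gm26704, overlaps 152 exonic bases of *Fzd6*, and it had at most 54 counts in a library. *Fzd3* (ENSMUSG00000007989, chr14:65192449-65262463, minus strand) was at 55.1, 62.9, 61.2 and 59.4 CPM in WT and at 57.4, 57.8, 58.7 and 55.2 CPM in mutants. The groups overlapped and the mutants spanned less than the WT embryos. The log2 fold change of *Fzd3* was -0.058 with an interval of -0.20 to 0.08, the narrowest of the members, and an edgeR adjusted p of 0.525.

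Prickle proteins are cytoplasmic LIM-domain proteins that bind Vangl. *Prickle2* (ENSMUSG00000030020, chr6:92370908-92706155, minus strand) was at 23.5, 21.6, 22.4 and 22.8 CPM in WT and at 47.2, 25.4, 32.8 and 26.5 CPM in mutants. Every mutant was above every WT embryo, with K14J26 apart from the other 3. The log2 fold change of 0.55 ± 0.18 (SE; interval 0.14 to 0.95) had an edgeR adjusted p of 0.0652 and was not called. *Prickle1* (ENSMUSG00000036158, chr15:93499114-93595891, minus strand) was at 57.1, 53.3, 57.9 and 61.3 CPM in WT and at 88.2, 53.7, 58.5 and 52.5 CPM in mutants. Only K14J26 exceeded the WT range. The log2 fold change was 0.14 (interval -0.21 to 0.49; edgeR adjusted p = 0.560), and it was -0.064 without that embryo.

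*Scrib* (ENSMUSG00000022568, chr15:76047158-76069784, minus strand) was at 83.1, 85.4, 96.0 and 90.0 CPM in WT and at 99.2, 85.9, 82.2 and 91.5 CPM in mutants. The groups overlapped over nearly their whole ranges, with means of 88.6 ± 5.72 and 89.7 ± 7.39 CPM (SD, n = 4 each). The log2 fold change was 0.017 with an interval of -0.15 to 0.19 and an edgeR adjusted p of 0.893.

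**Figure D2:**
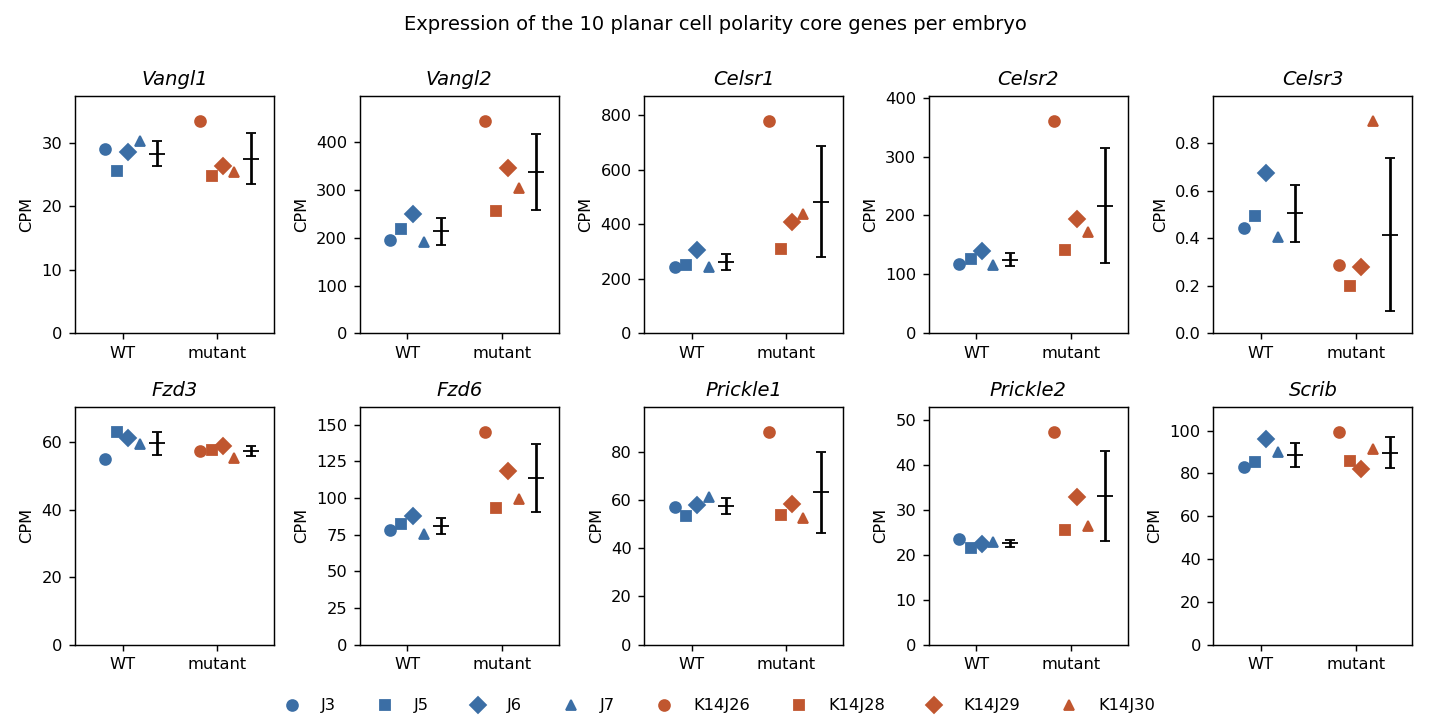
CPM of each member in each embryo (y axis, one panel per gene, each with its own range from 0; bars show the mean ± SD of 4 embryos). *Vangl2*, *Celsr1*, *Celsr2*, *Fzd6* and *Prickle2* have all 4 mutants above all 4 WT embryos, and K14J26 is the highest library in each of them.

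Windows of 250 bases upstream of RefSeq transcription starts (GRCm38.p6) were at hand for *Vangl2*, *Celsr2*, *Celsr3*, *Prickle1* and *Prickle2*, 9 windows in all, and *Vangl1*, *Celsr1*, *Fzd3*, *Fzd6* and *Scrib* had no entry. Of these, 4 are shown, to set *Celsr2* and *Prickle2*, whose groups did not overlap, beside *Prickle1*, whose groups did. The core motif TGGGAA of RBPJ, the DNA-binding partner of the Notch intracellular domain, was searched on both strands and lies in 21.6% of 32851 such windows. It was in 2 of the 9 member windows, 1 of *Vangl2* and 1 of *Prickle2*, and capitals mark its matches in the sequences printed. The *Vangl2* window lies within an annotated exon and is not printed. TCAAAG, the core of TCF/LEF sites, was in 1 of the 9 and in 13.8% of all windows. AACCGG, a Grainyhead-like core, was in 0 of the 9 and in 5.62% of all windows.
Celsr2, chr3:108415580-108415829, minus strand: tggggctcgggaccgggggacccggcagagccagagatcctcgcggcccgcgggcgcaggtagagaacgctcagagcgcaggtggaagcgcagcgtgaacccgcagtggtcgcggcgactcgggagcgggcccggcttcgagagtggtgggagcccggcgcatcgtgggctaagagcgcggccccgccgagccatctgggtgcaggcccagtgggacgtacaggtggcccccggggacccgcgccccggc
Prickle2, upstream start, chr6:92706185-92706434, minus strand: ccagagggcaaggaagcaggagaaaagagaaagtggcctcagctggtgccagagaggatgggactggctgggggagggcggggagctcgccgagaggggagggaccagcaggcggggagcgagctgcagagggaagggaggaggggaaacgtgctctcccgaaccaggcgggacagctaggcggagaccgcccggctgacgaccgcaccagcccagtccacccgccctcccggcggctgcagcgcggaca
Prickle2, internal start, chr6:92534862-92535111, minus strand: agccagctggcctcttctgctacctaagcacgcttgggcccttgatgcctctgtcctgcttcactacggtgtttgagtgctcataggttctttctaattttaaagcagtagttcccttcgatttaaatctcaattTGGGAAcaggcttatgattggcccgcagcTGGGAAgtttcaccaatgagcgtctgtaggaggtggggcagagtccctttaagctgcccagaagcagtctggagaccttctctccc
Prickle1, upstream start, chr15:93595903-93596152, minus strand: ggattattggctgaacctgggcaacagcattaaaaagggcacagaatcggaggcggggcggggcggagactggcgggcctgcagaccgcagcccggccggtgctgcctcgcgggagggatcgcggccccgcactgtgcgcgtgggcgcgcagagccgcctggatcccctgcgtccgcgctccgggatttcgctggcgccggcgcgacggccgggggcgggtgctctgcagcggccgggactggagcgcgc
The printed windows at the outermost starts of *Celsr2*, *Prickle2* and *Prickle1* hold none of the 3 motifs, and are 75.2% GC for *Celsr2* and 74.0% for *Prickle1*, beside a median of 52.4% over all windows. The internal *Prickle2* window is 50.8% GC and holds TGGGAA at 115 and 86 bases before the start. Of the internal windows not printed, 1 of *Prickle2* holds the TCF/LEF core. Another of *Prickle2* and that of *Prickle1* hold none of the 3 motifs. Counts per gene do not say which start was used, so the motif matches are a description of sequence only.

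Ratios of paralogs within a library do not depend on how libraries are scaled. *Vangl2* had 6.72, 8.56, 8.81 and 6.33 counts for each *Vangl1* count in WT and 13.3, 10.4, 13.2 and 11.99 in mutants, a log2 ratio 0.69 higher in mutants with no overlap between the groups. *Fzd6* had 1.42, 1.31, 1.43 and 1.27 counts for each *Fzd3* count in WT and 2.52, 1.61, 2.01 and 1.80 in mutants, a log2 ratio 0.53 higher, again with no overlap. *Prickle1* had 2.43, 2.47, 2.59 and 2.69 counts for each *Prickle2* count in WT and 1.87, 2.11, 1.78 and 1.98 in mutants, a difference of -0.40 in the log2 ratio, without overlap. In an exact two-sided permutation test over 70 arrangements each of these 3 ratios had p = 0.0286, the smallest that 4 against 4 can give, and an adjusted p of 0.0571 over the 6 ratios tested. Without K14J26 the 3 differences were 0.65, 0.41 and -0.38. The *Celsr1*/*Celsr2* log2 ratio was 1.06 ± 0.06 in WT and 1.16 ± 0.13 in mutants (SD, n = 4 each; exact permutation p = 0.200, adjusted p = 0.200), and its groups overlapped. The ratios of *Celsr1* and *Celsr2* to the scarce *Celsr3* were 1.30 and 1.20 higher on the log2 scale, but the groups overlapped through K14J30 (exact permutation p = 0.114 and 0.143, adjusted p = 0.171 for both).

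**Figure D3:**
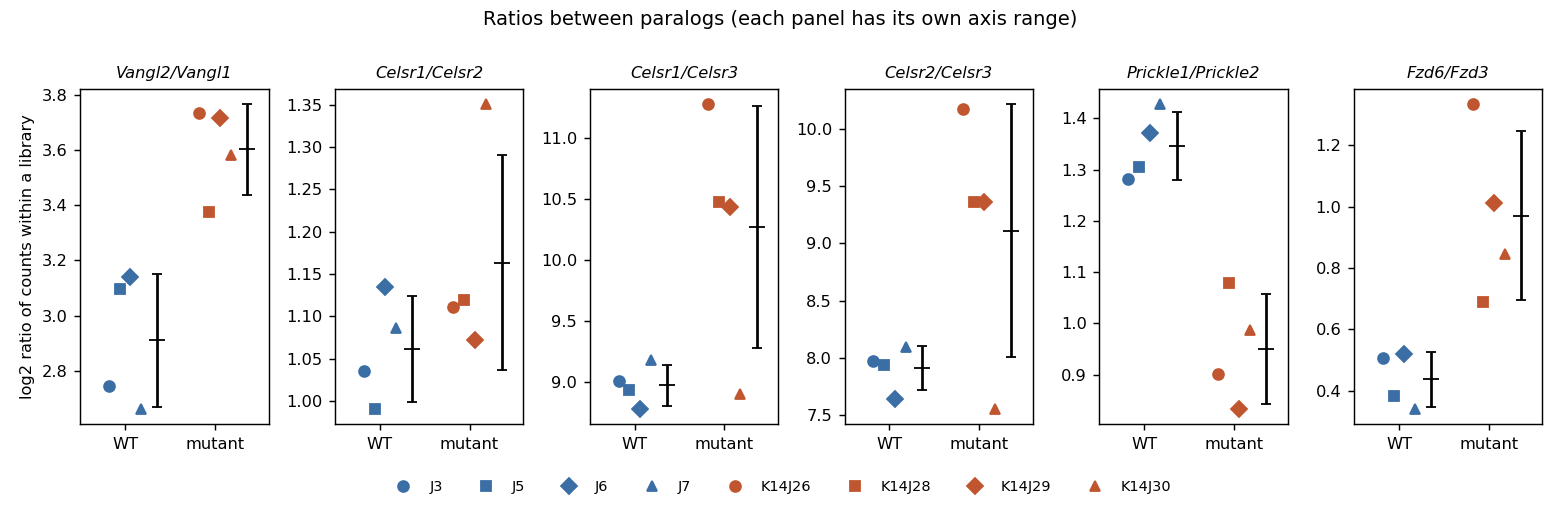
Log2 ratio of the counts of paralogs within each library (y axis, each panel with its own range that does not start at 0; bars show the mean ± SD of 4 embryos). *Vangl2*/*Vangl1* and *Fzd6*/*Fzd3* are higher in all mutants and *Prickle1*/*Prickle2* is lower in all mutants, while the 3 Celsr ratios overlap between the groups.

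To compare levels between genes, CPM was divided by the exonic length in kilobases (RPKM). In WT molars *Vangl2* led at 30.6 ± 3.95 RPKM and *Celsr1* followed at 23.7 ± 2.79 RPKM, with embryos of the neighbouring pair overlapping (SD, n = 4 each). *Fzd6* came next at 16.8 ± 1.13 RPKM, then *Scrib* at 13.7 ± 0.887 and *Prickle1* at 13.2 ± 0.756 RPKM, which overlapped each other. *Celsr2* at 10.9 ± 0.953, *Fzd3* at 4.66 ± 0.263, *Vangl1* at 3.95 ± 0.280 and *Prickle2* at 2.61 ± 0.093 RPKM each stood clear of the next. *Celsr3* was last at 0.042 ± 0.010 RPKM. In mutants the order began with *Vangl2* at 48.4 ± 11.4, *Celsr1* at 43.8 ± 18.6, *Fzd6* at 23.7 ± 4.83 and *Celsr2* at 18.8 ± 8.51 RPKM, so that *Celsr2* stood above *Prickle1* at 14.6 ± 3.88 and *Scrib* at 13.9 ± 1.15 RPKM, with overlap between all of these neighbours. *Vangl2* made up 88.4% of the Vangl level per length in WT and 92.5% in mutants. *Fzd6* made up 16.8% of the summed level of the 10 Frizzled genes in WT and 25.6% in mutants. *Prickle2* went from 12.9% to 15.5% of the summed level of *Prickle1* to *Prickle4*, and *Prickle1* from 65.2% to 59.2%.

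The mutant embryos differed from each other in a shared order. *Vangl2*, *Celsr2*, *Prickle2* and *Fzd6* were highest in K14J26, then K14J29, then K14J30, then K14J28, and *Celsr1* differed from this only in having K14J30 above K14J29. *Vangl1*, which was not called, had the same order as *Vangl2*, over a smaller span. The epithelial keratins *Krt5* and *Krt14*, the desmosome gene *Perp* and the enamel genes *Amelx*, *Ambn* and *Enam* had the same order as *Vangl2*. The odontoblast marker *Dspp*, the mesenchyme marker *Col1a2* and the neuron marker *Stmn2* had it too, so the order was not confined to epithelial genes. *Dspp* was at 6553, 4697, 2642 and 1801 CPM in K14J26, K14J29, K14J30 and K14J28. The markers *Dmp1*, highest in K14J29, and *Vim*, highest in K14J30, did not follow this order. Of the 8 dental and oral epithelium markers 1 was called higher (*Krt14*, log2 fold change 0.96 ± 0.21, SE, edgeR adjusted p = 0.0217) and none lower, and the list had a median log2 fold change of 0.36. Their summed level was 5286 to 6204 CPM in WT and 6271 to 9280 CPM in mutants, with none of the 8 at 0. Of 6 ameloblast markers tested 5 were called higher, and their summed level was 711 to 3423 CPM in WT and 3959 to 114747 CPM in mutants. The part of these cell type markers in the levels of the 5 core genes was not tested. *Fzd3* and *Scrib* spanned 1.06-fold and 1.21-fold between the mutant embryos, against 2.54-fold for *Celsr2* and 2.52-fold for *Celsr1*.

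**Figure D4:**
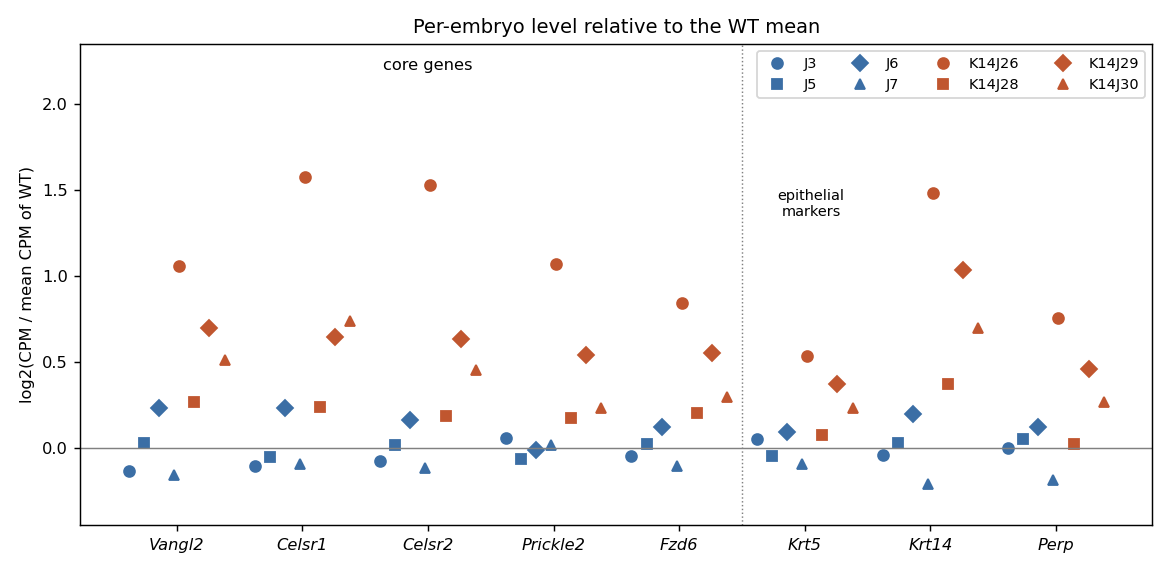
Level of 5 core genes and 3 epithelial markers in each embryo, as log2 of CPM over the mean CPM of WT (y axis; each point is an embryo, and the line at 0 is the WT mean). K14J26 is the highest and K14J28 the lowest mutant in all 8 genes, and *Krt14* spreads over the mutants much as *Celsr1* and *Celsr2* do.

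The calls rested on which embryos were in the fit, while the direction of *Vangl2*, *Celsr1* and *Fzd6*, and of *Celsr2* and *Prickle2*, which were not called with all 8 embryos, did not. When embryos were left out singly, over 8 fits, the adjusted p of *Vangl2* ran from 0.00809 to 0.0856, that of *Fzd6* from 0.0113 to 0.101 and that of *Celsr1* from 0.0107 to 0.109 (edgeR). None of the 10 was called without J3, J5, J7 or K14J29, although 5 had an unadjusted p under 0.05 in each of these fits. Of all tested genes, 2.18%, 2.65%, 1.77% and 1.48% were called higher there, and 15.2% to 15.9% were higher at an unadjusted p under 0.05. Only *Vangl2* was called without J6, beside 5.01% of all tested genes, and *Vangl2* and *Fzd6* without K14J30, beside 7.87%. Without K14J26, or without K14J28, *Vangl2*, *Celsr1*, *Celsr2*, *Fzd6* and *Prickle2* were all called, beside 10.3% and 14.6% of all tested genes called higher. Without K14J26 the log2 fold changes of *Celsr1*, *Celsr2* and *Prickle2* were smaller, at 0.56, 0.44 and 0.33. Without J6 and J7, the libraries with muscle transcripts, none of 9 members tested was called (3 had an unadjusted p under 0.05), and 3 genes of all were called higher. The log2 fold changes there were 0.71 for *Vangl2*, 0.96 for *Celsr1* and 0.50 for *Fzd6*, as large as with all 8 embryos. With the robust dispersion setting of edgeR, *Vangl2* and *Fzd6* were called and *Celsr1* was not (adjusted p = 0.0567). Without K14J28 and K14J29, the libraries with *Xist*, 4 members were called higher, beside 8.36% of all tested genes. Of all calls, 59.0% were higher in mutants, against 48.5% with upper-quartile scaling and 44.6% with library size only, and the same 3 members were called under each of these scalings.

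Of 78 other genes of the pathway in 7 lists by role, 76 were tested, with a median log2 fold change of 0.025. Of these, 7 (9.21%) were called higher, close to the 9.52% of all tested genes, and 13 (17.1%) were called lower, beside 6.61% of all tested genes. By the study's criteria, which add a fold limit, 6 of the 76 were higher and 5 lower, beside 8.33% and 5.85% of all tested genes. Among 7 non-canonical Wnt ligands 2 were called, both lower, *Wnt11* (-0.29) and *Wnt9b* (-1.99, at no more than 0.642 CPM in any library). Of 8 co-receptors 4 were called, each lower, led by *Ror2*, the tyrosine kinase receptor of Wnt5a. *Ror2* was at 64.0, 56.9, 49.0 and 60.4 CPM in WT and at 35.0, 36.5, 30.6 and 32.1 CPM in mutants, which leaves a wide gap between the groups (log2 fold change -0.78 ± 0.10, SE, edgeR adjusted p = 0.00523). The other 3 were the proteoglycans *Gpc6* (-0.67) and *Sdc4* (-0.40) and the receptor *Ror1* (-0.32). Of the 8 other Frizzled genes 3 were called, each lower, *Fzd1* (-0.65), *Fzd10* (-0.41) and *Fzd2* (-0.37).

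In the cytoplasmic core, 2 of 14 genes were called, both higher. *Prickle3*, a paralog of the Prickle members, was at 17.8, 18.0, 17.5 and 15.2 CPM in WT and at 32.0, 20.9, 24.2 and 23.3 CPM in mutants, again with K14J26 highest and no overlap (log2 fold change 0.55 ± 0.13, SE, edgeR adjusted p = 0.0273). The other was the kinase *Csnk1d* (0.17), and the Dishevelled genes *Dvl1*, *Dvl2* and *Dvl3* were not called, at 0.23, -0.031 and 0.25. In the Fat and Dachsous module, a parallel system of large cadherins, 2 of 7 were called, both lower, the Golgi kinase *Fjx1* (-0.67) and the cadherin *Dchs1* (-0.47). Among 14 downstream effectors 2 were higher, the formin *Daam1* (0.34) and the ciliogenesis gene *Intu* (0.29), and 1 was lower, the GTPase *Rac1* (-0.18). Of 18 tested genes of the Scribble module and apical-basal polarity 3 were higher and 1 lower, with a median log2 fold change of 0.14. These were the atypical kinase C *Prkcz* (1.11), the Crumbs-complex scaffold *Patj* (0.52), *Llgl2* (0.48) and, lower, *Llgl1* (-0.29), the last 2 being paralogs that act with Scrib. *Patj* was at 48.1, 51.4, 49.4 and 50.6 CPM in WT and at 78.9, 65.4, 73.2 and 69.0 CPM in mutants, well apart. Of the 20 genes called, *Ror2*, *Sdc4*, *Fzd1*, *Fjx1* and *Patj* had an adjusted p under 0.05 in each of the 8 fits that left out 1 embryo.

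**Figure D5:**
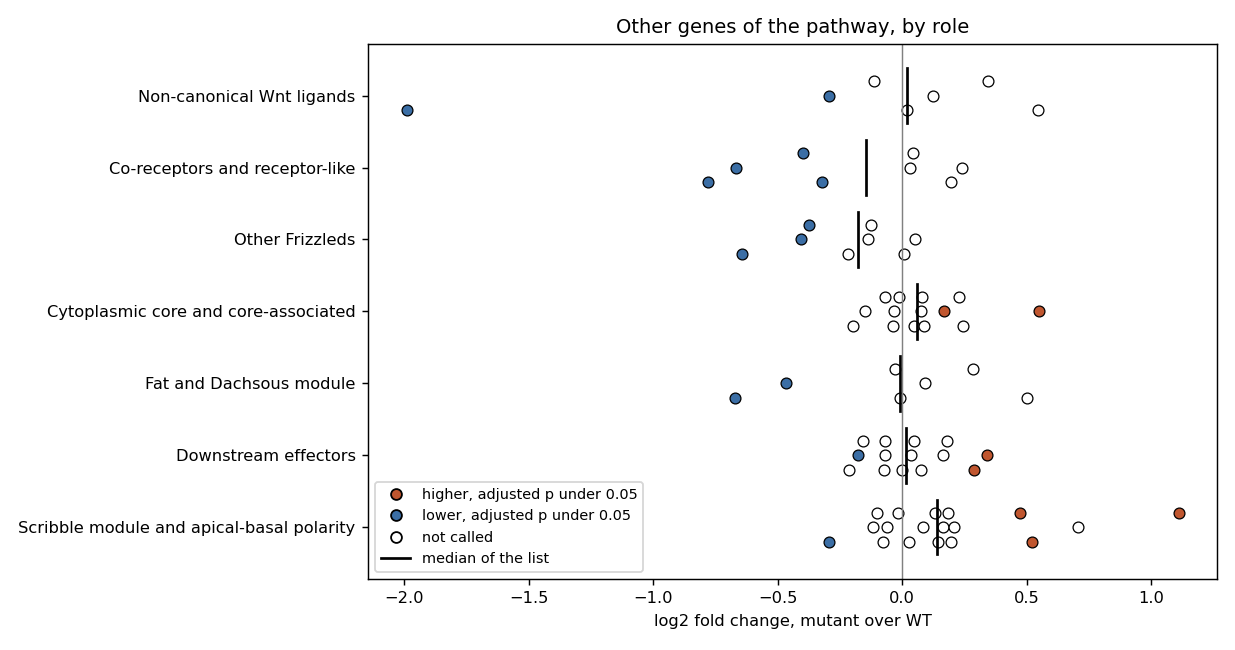
Log2 fold change, mutant over WT, of 76 other genes of the pathway (x axis) in 7 lists by role (y axis), each point a gene, filled where the adjusted p of edgeR is under 0.05, with the list's median as a bar. Calls among ligands, co-receptors, other Frizzleds and the Fat and Dachsous module are all lower, and the 7 higher calls are in the 3 lists of cytoplasmic, effector and apical-basal genes.

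The genes whose pattern over the 8 embryos was most like that of *Vangl2*, the member above 0 of smallest p, were Gm20605, *Tmem104* and *Vldlr*, with a root-mean-square difference of 0.0463, 0.0474 and 0.0488 on the centred log2 CPM scale among 17128 genes ranked. Of the other members *Fzd6* came closest, at rank 85 with 0.108, followed by *Prickle2* at rank 414, *Celsr2* at 470 and *Celsr1* at 611. *Vangl1* was at rank 5848. Most like *Fzd3*, the member below 0 of smallest p, which was not called, were *Pcf11*, *Pip5k1a* and *Arap3*, at 0.0227, 0.0274 and 0.0301, with log2 fold changes of -0.053, -0.044 and -0.015.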

How the data were processed

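RNA-seq reads of 8 lower-molar libraries were trimmed of 5 bases at the 3′ end and aligned with STAR to GRCm38 by the authors (build GRCm38.p3 in the submitters' processing notes), who deposited unnormalized counts per Ensembl gene. The paper names GenomicRanges for counting and the processing notes featureCounts; the use of strand and the treatment of reads with several matches are not given in the sources used here. Symbols, positions and exon lengths came from GENCODE M21 (42462 of 43629 identifiers).

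The 17129 genes that reached 10 counts in 2 or more of the 4 libraries of a group entered the analysis, as in the study's methods. TMM scaling and quasi-likelihood tests (edgeR 4.0.16, R 4.3.3) used group as the only factor, with Benjamini-Hochberg adjustment over all of them. Intervals (95%) use the degrees of freedom of that test. Paralog ratios were log2 ratios of count + 0.5, compared with exact permutation tests (SciPy 1.17.1). DESeq2 1.42.0 was an alternative, as were other scalings and filters and leaving out embryos. The fits were tested on simulated data. There, 58% of genes given a log2 fold change of 1 in size were called, 93% of those given 2, and 3.82% of calls were false. All members had fitted log2 fold changes below 1 in size, so a member not called is not shown to be unchanged. Replicates were compared with a chi-square test, whose statistic per degree of freedom was 7.17 to 299 over the 12 pairs within groups, so none of these pairs held copies of 1 library. The samples are separate embryos. Precision is limited by the number of embryos, 4 per group, and for *Celsr3* also by its low counts.

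The members, the 7 pathway lists and the 9 marker lists were chosen with earlier results of these data known. Named were all members, up to 4 called genes of smallest p in each pathway list, up to 3 marker genes of highest mean CPM, *Jag1*, the enamel genes and the 3 genes nearest in pattern to the members of smallest p with a fold change above and below 0 (*Vangl2* and *Fzd3*, the latter not called); the Dishevelled genes, *Xist* and overlapping genes were named after their values were seen. Promoter windows are RefSeq's.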

Additional observations from a re-analysis of the deposited data

Results flagged for a closer look

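Of 32 groups of 4 embryos tested (CPM of the members and paralog ratios), 3 had 1 embryo far from the others, with a gap to the nearest above 0.829 of the group's range, which chance gives in about 1 of 20 groups. *Celsr1* was at 307 CPM in WT embryo J6, against 242 to 251 CPM in the other WT embryos. *Celsr3* was at 0.893 CPM in mutant embryo K14J30, against 0.200 to 0.288 CPM in the other mutants, from 23 counts. *Prickle1* was at 88.2 CPM in mutant embryo K14J26, against 52.5 to 58.5 CPM in the other mutants.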

How the results depend on the processing

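The direction of *Vangl2*, *Celsr1*, *Celsr2*, *Fzd6* and *Prickle2* was the same under every alternative run, and 0 members were called lower under any. DESeq2 called 5 members higher, and 2244 of all genes higher and 1718 lower, edgeR with robust dispersion called 2 members, and without WT 6 and 7 the members called higher were 0, all genes called 3 higher and 4 lower, and pathway genes called 0 and 0. Leaving out 1 embryo gave 0 to 5 members called higher, 250 to 2479 of all genes higher and 170 to 1843 lower, and 1 to 8 pathway genes higher and 4 to 15 lower. With library size only, 855 of all genes and 3 pathway genes were called higher, and with upper-quartile scaling 4 pathway genes. Pathway genes called lower were 6 without mutants 28 and 29 and 5 by the study's criteria, which called 6 higher. The cause of these shifts was not tested.

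Members near 0 changed sign. *Vangl1* was at 0.044 without mutants 28 and 29 and at 0.0077 without WT 6 and 7, and *Celsr3* at 0.27 without mutants 28 and 29. *Scrib* was at -0.026 with upper-quartile scaling, at -0.087 with library size only, and from -0.034 to 0.058 with 1 embryo left out. *Prickle1* ran from -0.064 to 0.22 with 1 embryo left out. All 6 paralog ratios kept their direction. *Celsr3* has no value with at least 10 counts in all 8 libraries or without WT 6 and 7, where it was not tested, and its 6 to 23 counts are the fewest among the members. The paper calls the controls littermates of the mutants, but the labels do not give the litter of an embryo. No analysis paired or blocked by litter was therefore possible, and differences between litters were not modelled.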
